A study of Homo sapiens with 8 samples.

Results

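The G1 cyclins, the kinases they activate and the inhibitors of those kinases were followed in SCC25 cells after loss of the transcription factor ETS1. They comprised 10 of the 56638 gene symbols in the count tables, chosen by name: the D-type cyclins CCND1, CCND2 and CCND3, the E-type cyclins CCNE1 and CCNE2, the kinases CDK4 and CDK6, and the inhibitors CDKN1A, CDKN1B and CDKN2B. All 10 had reads in every library and passed the filter on low counts in both knockdowns. SCC25 is an established squamous carcinoma line from the head and neck. RNA from whole cultures was sequenced in 4 groups of 2 libraries. Cells of the siRNA control group received non-targeting siRNAs and those of the ETS1 siRNA group a pool of siRNAs against ETS1, both by transient transfection. Cells of the shCON group carried a non-targeting hairpin and those of the shETS1 group a hairpin against ETS1, both from a lentivirus and both selected with puromycin. The sequenced shETS1 cells carried a single hairpin, and both hairpin groups were stable lines. The study used the siRNAs to look at short-term and the hairpins at long-term loss of ETS1.

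Entry into the cell cycle is controlled in G1. D-type cyclins, made in response to growth signals, bind CDK4 or CDK6, and E-type cyclins bind CDK2. These kinases phosphorylate the retinoblastoma protein and its relatives, which releases E2F factors to switch on the genes of DNA replication. Inhibitors of the INK4 family, such as p15 encoded by CDKN2B, bind CDK4 and CDK6, while those of the CIP/KIP family, p21 encoded by CDKN1A and p27 encoded by CDKN1B, act on cyclin-kinase complexes more widely. In head and neck squamous carcinomas the CCND1 locus at 11q13 is often amplified and the locus of the INK4 genes at 9p21 often deleted. ETS1 belongs to a family of factors that bind DNA at a GGAA core.

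The targeted gene fell in both knockdowns. ETS1 stood at 288 and 248 CPM in siRNA control and at 17.4 and 13.2 CPM in ETS1 siRNA, and at 82.3 and 72.1 CPM in shCON and 9.76 and 11.1 CPM in shETS1. The log2 fold change was -4.13 ± 0.188 (SE; adjusted p = 0.00017) after siRNA and -2.89 ± 0.101 (adjusted p = 3.8e-13) after shRNA. CPM are reads of a gene as a rate over the reads of the genes kept in its library, scaled within each count table, so levels after siRNA and after shRNA were set side by side but not compared directly. Total counts ran from 15954616 to 25953213 per library. All 8 markers of squamous epithelium were above 1 CPM in each library, and the summed level of 6 leukocyte markers was at most 4.01 CPM. The summed level of 8 fibroblast markers, none of them at 0 in any library, was higher in both knockdowns. It was 217 and 187 CPM in siRNA control and 289 and 337 CPM in ETS1 siRNA. After siRNA COL1A1 went from 143 and 126 CPM to 210 and 238 CPM. COL1A2, LUM and DCN were also higher in both ETS1 siRNA libraries. COL3A1, PDGFRA and THY1 overlapped between the siRNA groups, and PDGFRB was lower (18 and 16 reads, then 13 and 11). In the hairpin libraries the summed level was 255 to 281 CPM in shCON and 2140 to 2230 CPM in shETS1. Most of the rise after the hairpin came from LUM, DCN and COL3A1. COL1A2 (271 and 213 reads in shCON, 832 and 1000 in shETS1), COL1A1 (122 and 111, then 179 and 249) and PDGFRA (34 and 30, then 57 and 82) were also higher, while THY1 and PDGFRB had 2 to 9 reads per shRNA library. Of 4 endothelial markers PECAM1 had no read in any library, and their sum of 23.9 to 24.1 CPM in shETS1 against 1.97 to 2.03 CPM in shCON came almost wholly from KDR (550 and 600 reads in shETS1). The squamous markers also summed higher in both knockdowns, at 21900 to 25900 CPM in ETS1 siRNA against 14600 to 19200 CPM in siRNA control and at 25600 to 26000 CPM in shETS1 against 15300 to 15400 CPM in shCON. These sums are mostly keratins. EPCAM stood lower in shETS1 (72.6 and 80.3 CPM) than in shCON (112 and 121 CPM), as did TP63 (424 and 519 against 632 and 612 CPM), and CDH1 overlapped. Structural RNAs that lack a poly(A) tail (RN7SK, RN7SL1, RN7SL2, RPPH1 and RMRP) made up 5.61% to 6.63% of the counts in shCON, 9.64% to 12.3% in shETS1 and at most 0.00339% in the siRNA libraries. With these RNAs and the mitochondrial genes removed, the same G1 genes passed the test in each comparison. The part of the marker shifts in the results below was not tested.

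Because ETS1 binds GGAA, the stretches just upstream of the G1 genes were read from the RefSeq promoter table (build GRCh38.p14), which held 10 start sites of 7 of the genes; CCND1, CCND2 and CCNE2 had no entry. Each window covered the 250 bases before a start site. GGAA, searched as GGAA or as TTCC for the other strand, was present in all 10 windows, at 1 to 4 copies, and in 92.7% of the 35116 windows of the table, at a median of 3 copies. The longer CCGGAA, which contains GGAA and was searched on both strands, was present in 14.5% of all windows and in 2 of the 10, a window of CCND3 and that of CDKN1A. These 2 windows are shown with those of CDKN2B, which rose most after the hairpin, and of CDK4, the kinase that fell. They are written 5′ to 3′ on the strand of the gene, ending at the base before the start site, with GGAA and TTCC in capitals. The CDKN2B window lay at chr9:22009306-22009555 on the minus strand, that of CDKN1A at chr6:36678464-36678713 on the plus strand, that of CDK4 at chr12:57752311-57752560 on the minus strand and that of the second CCND3 start at chr6:41941809-41942058 on the minus strand.
CDKN2B: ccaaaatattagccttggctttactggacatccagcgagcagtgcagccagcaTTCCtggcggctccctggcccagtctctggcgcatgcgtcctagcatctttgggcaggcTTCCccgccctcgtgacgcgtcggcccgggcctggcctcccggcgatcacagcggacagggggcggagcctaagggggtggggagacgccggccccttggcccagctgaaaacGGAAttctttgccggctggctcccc
CDKN1A: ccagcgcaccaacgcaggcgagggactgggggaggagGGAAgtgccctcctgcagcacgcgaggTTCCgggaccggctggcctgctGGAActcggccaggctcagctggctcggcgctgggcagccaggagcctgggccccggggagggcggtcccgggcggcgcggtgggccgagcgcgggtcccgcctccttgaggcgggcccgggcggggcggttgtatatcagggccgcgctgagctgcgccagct
CDK4: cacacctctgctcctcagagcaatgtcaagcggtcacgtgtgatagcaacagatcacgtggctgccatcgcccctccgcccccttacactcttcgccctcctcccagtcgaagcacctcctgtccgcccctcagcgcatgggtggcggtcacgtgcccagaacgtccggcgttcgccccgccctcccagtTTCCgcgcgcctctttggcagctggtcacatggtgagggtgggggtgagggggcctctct
CCND3, second start: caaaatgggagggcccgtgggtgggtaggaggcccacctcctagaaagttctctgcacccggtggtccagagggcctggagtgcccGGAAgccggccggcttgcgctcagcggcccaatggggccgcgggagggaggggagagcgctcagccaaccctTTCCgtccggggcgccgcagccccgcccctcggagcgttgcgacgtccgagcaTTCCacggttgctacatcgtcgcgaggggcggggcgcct
The CDKN2B and CDKN1A windows each held 3 copies of GGAA, and the CDK4 window held 1. The letters describe these windows only, and binding of ETS1 to them was not analysed here.

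After siRNA, CDK6 rose and CCND2 fell, and the other 8 G1 genes did not pass the test. Thus 2 of 10 were called (edgeR quasi-likelihood test, Benjamini-Hochberg adjusted p under 0.1), beside 3.41% of the 14742 genes tested (502 genes; 1.13% higher and 2.27% lower). The call of CCND2 was lost without siRNA control replicate 1, without siRNA control replicate 2 or without ETS1 siRNA replicate 2. The count over all genes was 72 without siRNA control replicate 1 and 1478 without ETS1 siRNA replicate 1. After the hairpin, CDKN2B, CCNE1, CDKN1B and CDKN1A rose and CCND2, CDK4 and CCND3 fell, so that 7 of 10 were called, 4 higher and 3 lower. That share was close to the 60.6% called among all 16481 genes tested, of which 29.7% were higher and 30.9% lower. With libraries scaled to their total counts only, the split over all genes after the hairpin was 3624 higher and 6269 lower in place of 4900 and 5088, the median over all genes moved to -0.125, and CCND1 was called as well, as lower. The median log2 fold change of the 10 genes was 0.21 after siRNA and -0.07 after shRNA, beside medians over all genes of 0.00182 and 0.000664. At these settings CCND2 was the only G1 gene called in both knockdowns, and it fell in both. Of 15 other settings each, the siRNA comparison also called CCNE1 in 4 and CDKN1A in 3, both as higher, and CCND2 in 10. In RNA from whole cultures, fewer cells expressing a gene and less of its RNA per cell cannot be told apart.

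**Figure D1:**
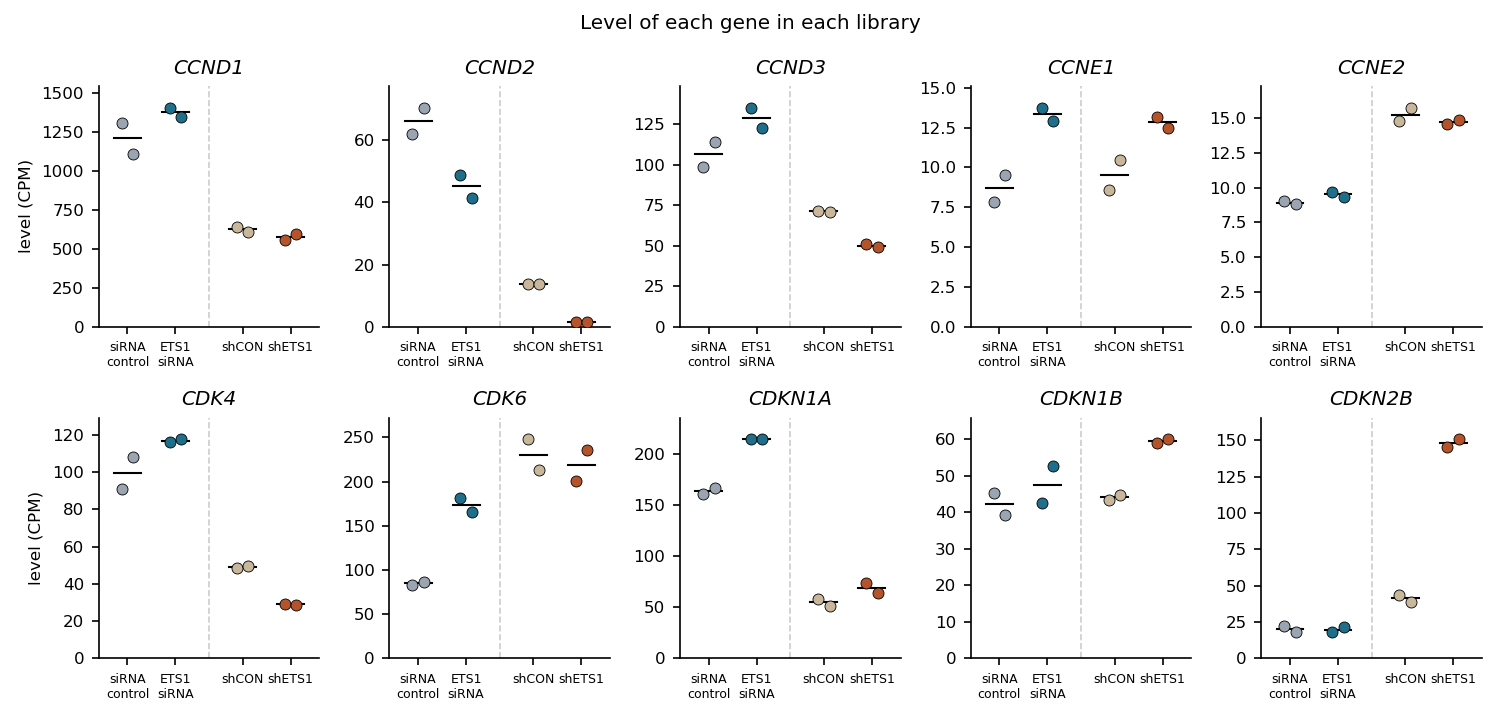
Level of each of the 10 G1 genes in every library, in CPM on an axis from 0, with a dot per library and a bar at the group mean; the dashed line separates the 2 count tables, whose levels are scaled apart. CDKN2B stood at 145 and 151 CPM in shETS1 against 43.5 and 38.9 CPM in shCON, and CDK6 at 181 and 165 CPM in ETS1 siRNA against 82.7 and 86.9 CPM in siRNA control.

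CCND1, the most abundant of the D-type cyclins in these cells (chr11:69455924-69469242, plus strand, GRCh37), stood at 1309 and 1113 CPM in siRNA control and at 1407 and 1349 CPM in ETS1 siRNA. In shCON it stood at 644 and 611 CPM and in shETS1 at 561 and 597 CPM. The log2 fold change was 0.19 ± 0.126 (SE, adjusted p = 0.46) after siRNA and -0.12 ± 0.0793 (adjusted p = 0.23) after shRNA. Neither change passed the test. CCND1 shares 10.44% of its exon bases with a gene on the opposite strand, listed in the tables as ORAOV1, which did not pass the test in either knockdown.

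CCND2 (chr12:4378937-4414519, plus strand), a D-type cyclin with a more restricted expression than CCND1 in most tissues, showed the largest fall of the 10 genes in each knockdown. After siRNA it went from 62.0 and 70.4 CPM to 48.8 and 41.5 CPM. The log2 fold change was -0.55 ± 0.134, with an adjusted p of 0.097, just inside the threshold. Under 15 other settings of the analysis it was called in 10, with adjusted p values from 0.00082 to 0.4. In shCON the gene stood at 13.8 CPM in each library, from 347 and 359 reads, and in shETS1 at 1.61 and 1.59 CPM from 37 and 40 reads. This was an 8.62-fold fall (log2 fold change -3.11 ± 0.16, adjusted p = 4.9e-11), larger than the 7.4-fold fall of ETS1 in the same libraries, a comparison that was not tested. Its antisense gene CCND2-AS1 had 0 to 4 reads per library.

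CCND3 (chr6:41902672-42018095, minus strand), the third D-type cyclin, stood at 98.8 and 114 CPM in siRNA control and at 135 and 122 CPM in ETS1 siRNA. The difference did not pass the test (log2 fold change 0.27 ± 0.14, adjusted p = 0.34). After the hairpin it fell from 71.6 and 71.1 CPM to 50.8 and 49.1 CPM (log2 fold change -0.51 ± 0.0757, adjusted p = 1.8e-05).

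Per kilobase of exon, CCND1 made up most of the D-type cyclin RNA in each library, 89.1% to 93.5% of the summed CPM per kb. CCND2 supplied 2.59% and 3.36% of it in siRNA control and 1.88% and 1.68% in ETS1 siRNA. In shCON it supplied 1.16% and 1.22%, and in shETS1 0.159% and 0.148%. CCND3 supplied between 5.72% and 8.66% in the 8 libraries, and less in the shETS1 libraries (6.96% and 6.36%) than in the shCON libraries (8.32% and 8.66%). With the longest transcript as gene length, a setting added after the data were seen, CCND1 still made up most, at 81.9% to 87.2%, but CCND3 supplied 11.5% to 16.9%. CCND2 then supplied 0.143% to 3.2%, a minor part in each library with either length.

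**Figure D2:**
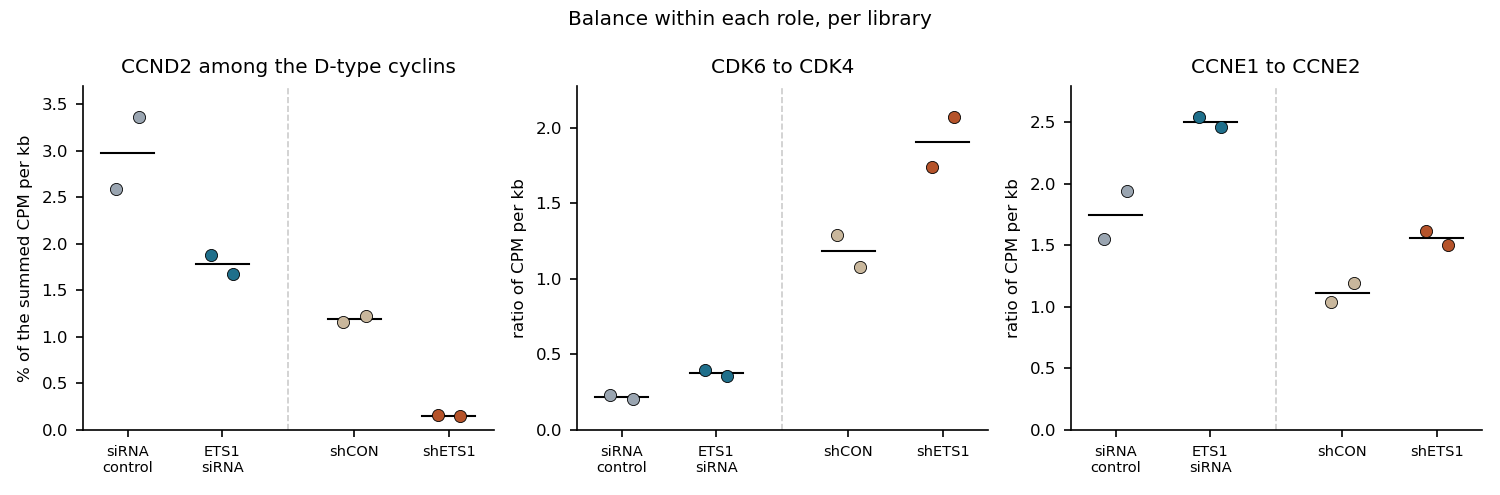
Balance between genes of the same role in every library: the share of CCND2 in the summed CPM per kb of the D-type cyclins (%), the ratio of CDK6 to CDK4 and the ratio of CCNE1 to CCNE2, both from CPM per kb of all exons, with a dot per library and a bar at the group mean. The CCND2 share lay below its control in both knockdowns, and the CDK6 to CDK4 ratio lay above it, at 1.74 and 2.07 in shETS1 against 1.29 and 1.08 in shCON.

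CCNE1 (chr19:30302898-30315219, plus strand), which activates CDK2 at the end of G1, was a low transcript. It stood at 7.81 and 9.54 CPM in siRNA control and at 13.7 and 12.9 CPM in ETS1 siRNA, from 153 to 262 reads. The difference did not pass the test (log2 fold change 0.62 ± 0.172, adjusted p = 0.13). After the hairpin it rose from 8.55 and 10.5 CPM to 13.2 and 12.5 CPM (log2 fold change 0.43 ± 0.128, adjusted p = 0.0084). Without shCON replicate 1, the lower of the shCON libraries, the log2 fold change was 0.29 and the adjusted p 0.16.

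CCNE2, the other E-type cyclin (chr8:95891998-95908906, minus strand), stood at 9.02 and 8.79 CPM in siRNA control and 9.66 and 9.36 CPM in ETS1 siRNA. It stood at 14.8 and 15.7 CPM in shCON and 14.5 and 14.8 CPM in shETS1, where the groups overlapped. It passed the test in neither knockdown, with log2 fold changes of 0.09 ± 0.162 and -0.05 ± 0.108. Its value is uncertain, since 37.05% of its exon bases lie opposite exons of INTS8, a subunit of the Integrator complex, and the use of strand in counting was not given. INTS8 rose after the hairpin (log2 fold change 0.38, adjusted p = 0.00065).

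Of the G1 kinases, CDK6 rose after siRNA and CDK4 fell after the hairpin. CDK6 (chr7:92234235-92465887, minus strand), which phosphorylates the retinoblastoma protein, stood at 82.7 and 86.9 CPM in siRNA control and at 181 and 165 CPM in ETS1 siRNA. This was a 2.04-fold rise (log2 fold change 1.03 ± 0.132, adjusted p = 0.014), the largest change among the 10 genes after siRNA, and it was called under all 15 other settings. In shCON it stood at 248 and 214 CPM and in shETS1 at 201 and 236 CPM. These groups overlapped, and the log2 fold change was -0.08 ± 0.089 (adjusted p = 0.49).

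CDK4 (chr12:58141510-58149796, minus strand), which shares its cyclin partners and its INK4 inhibitors with CDK6, stood at 90.9 and 108 CPM in siRNA control and 116 and 118 CPM in ETS1 siRNA (log2 fold change 0.23 ± 0.14, adjusted p = 0.42). After the hairpin it fell from 48.5 and 49.8 CPM to 29.2 and 28.8 CPM, by 1.69-fold (log2 fold change -0.76 ± 0.0822, adjusted p = 5.5e-07). Of its exon bases, 44.25% lie opposite exons of TSPAN31, a tetraspanin, so the CDK4 values are uncertain in the same way as those of CCNE2. TSPAN31 moved the other way after the hairpin (log2 fold change 0.26, adjusted p = 0.049). The ratio of CDK6 to CDK4 per kilobase was 0.23 and 0.203 in siRNA control and 0.394 and 0.355 in ETS1 siRNA. In the hairpin libraries it was 1.29 and 1.08 for shCON and 1.74 and 2.07 for shETS1. Which kinase was the higher in shCON depended on the gene length: with the longest transcript the ratio was 0.816 and 0.686 in shCON, 1.1 and 1.31 in shETS1, 0.145 and 0.128 in siRNA control and 0.249 and 0.225 in ETS1 siRNA. With either length it was higher in each knockdown library than in either of its controls.

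Of the CIP/KIP inhibitors, CDKN1A (chr6:36644237-36655114, plus strand), best known as a target of p53, stood at 161 and 167 CPM in siRNA control and at 214 CPM in both ETS1 siRNA libraries. The log2 fold change was 0.38 ± 0.123, and the difference did not pass the test (adjusted p = 0.17). After the hairpin it rose from 57.7 and 51.6 CPM to 73.5 and 63.7 CPM (log2 fold change 0.33 ± 0.0873, adjusted p = 0.0041). The test of the difference between the knockdowns gave an adjusted p of 0.75 (log2 difference -0.08 ± 0.145).

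CDKN1B (chr12:12838432-12875303, plus strand), whose protein p27 holds cells in quiescence, stood at 45.3 and 39.2 CPM in siRNA control and 42.5 and 52.6 CPM in ETS1 siRNA, with overlap (log2 fold change 0.17 ± 0.145, adjusted p = 0.57). After the hairpin it rose from 43.3 and 44.8 CPM to 59.0 and 59.9 CPM (log2 fold change 0.43 ± 0.0775, adjusted p = 0.00014).

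CDKN2B (chr9:22002902-22009304, minus strand), whose protein p15 is a known mediator of growth arrest by TGF-β, showed the largest rise. It stood at 22.1 and 17.8 CPM in siRNA control and 18.4 and 21.2 CPM in ETS1 siRNA, so the groups overlapped (log2 fold change -0.01 ± 0.165, adjusted p = 0.98). After the hairpin it rose 3.59-fold, from 43.5 and 38.9 CPM to 145 and 151 CPM (log2 fold change 1.85 ± 0.0796, adjusted p = 4.8e-12). It was called under all 15 other settings, with log2 fold changes from 1.72 to 1.92. CDKN2B overlaps CDKN2B-AS1, the long noncoding gene on the opposite strand, but their exons share no base.

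**Figure D3:**
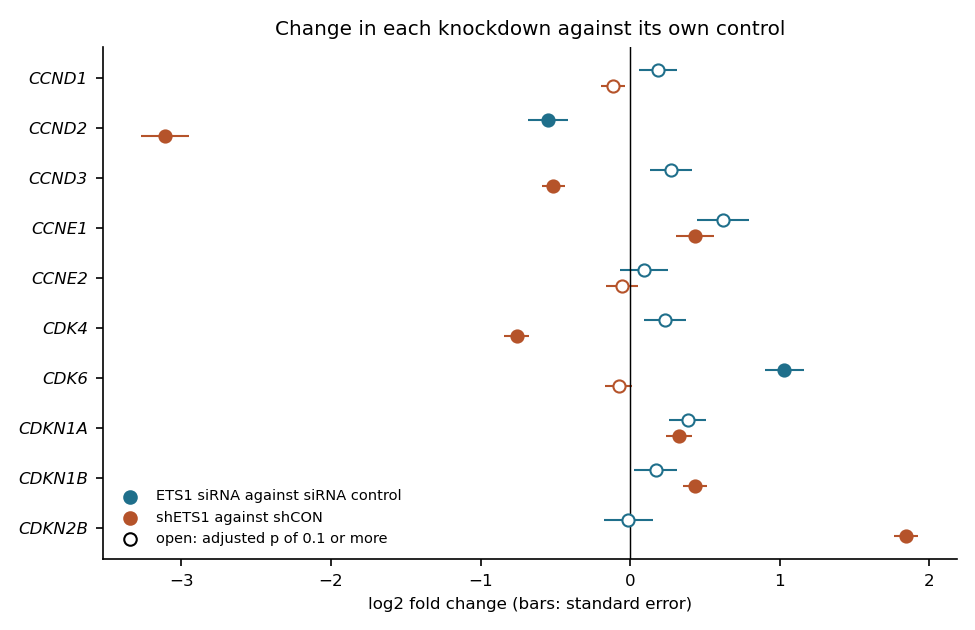
Log2 fold change of the 10 G1 genes in each knockdown against its own control (edgeR, 2 libraries a group), with bars of 1 standard error; filled points have an adjusted p under 0.1. CCND2 lay left of 0 in both knockdowns, CDK6 at 1.03 after siRNA and near 0 after the hairpin, and CDKN2B near 0 after siRNA and at 1.85 after the hairpin.

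Whether the knockdowns differed was tested in a fit of the 8 libraries, by subtracting the change after siRNA from the change after the hairpin. Of the 10 genes, 5 were called, 1 higher and 4 lower after the hairpin, beside 34.8% of the 17190 genes tested (15.1% higher and 19.7% lower). CDKN2B was higher, by 1.84 ± 0.182 on the log2 scale (adjusted p = 9.7e-05). CCND2 was lower, by -2.57 ± 0.19 (adjusted p = 2e-05), followed by CDK6 at -1.13 ± 0.164 (adjusted p = 7e-04), CDK4 at -1.01 ± 0.15 (adjusted p = 0.00079) and CCND3 at -0.81 ± 0.146 (adjusted p = 0.0025). CCND1, CCNE1, CCNE2, CDKN1A and CDKN1B did not pass, with differences between -0.32 and 0.24. ETS1 itself fell further after siRNA, with a difference of 1.23 ± 0.208 (adjusted p = 0.0017). The knockdown method, its duration and the way the libraries of each table were made cannot be told apart in this difference.

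Ordered by level per kilobase of exon, CCND1 was the highest of the 10 genes in each group, at means from 122 to 289 CPM per kb. In siRNA control it was followed by CDKN1A (54.7 CPM per kb), CDK4 (32.2), CCND3 (18.5), CCND2 (8.28), CDK6 (6.93), CDKN2B (4.99), CDKN1B (4.57), CCNE1 (3.52) and CCNE2 (2.03). There the replicates of CDKN2B and CDKN1B overlapped. In ETS1 siRNA CDK6 stood above CCND2, at 14.1 CPM per kb, and CCND2, CCNE1, CDKN1B and CDKN2B, at 4.95 to 5.65 CPM per kb, each overlapped the next. In shCON the order below CCND1 (132 CPM per kb) was CDK6 (18.8), CDKN1A (18.2), CDK4 (15.9), CCND3 (12.4), CDKN2B (10.3), CDKN1B (4.76), CCNE1 (3.86), CCNE2 (3.47) and CCND2 (1.73). CDK6 and CDKN1A overlapped, as did CCNE1 and CCNE2. In shETS1 CDKN2B stood second at 37 CPM per kb, above CDKN1A (22.9), CDK6 (17.9), CDK4 (9.38), CCND3 (8.67), CDKN1B (6.42), CCNE1 (5.21), CCNE2 (3.34) and CCND2 (0.200). No neighbours overlapped in that group at this length. With the longest annotated transcript as length in place of all exons, CCND1 stayed first in each group. CCND3 stood next to it in shCON, at 29.8 CPM per kb. There CDK6 (19.8 CPM per kb) stood below CDK4 (26.4 CPM per kb) and CDKN1A (24.1 CPM per kb). In shETS1 CCND3 (20.9 CPM per kb) then stood above CDK6 (18.7 CPM per kb) and CDK4 (15.6 CPM per kb). CDKN1B stood above CCND2 in siRNA control (9.75 against 9.66 CPM per kb, with overlap) and in ETS1 siRNA (11 against 6.59 CPM per kb).

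**Figure D4:**
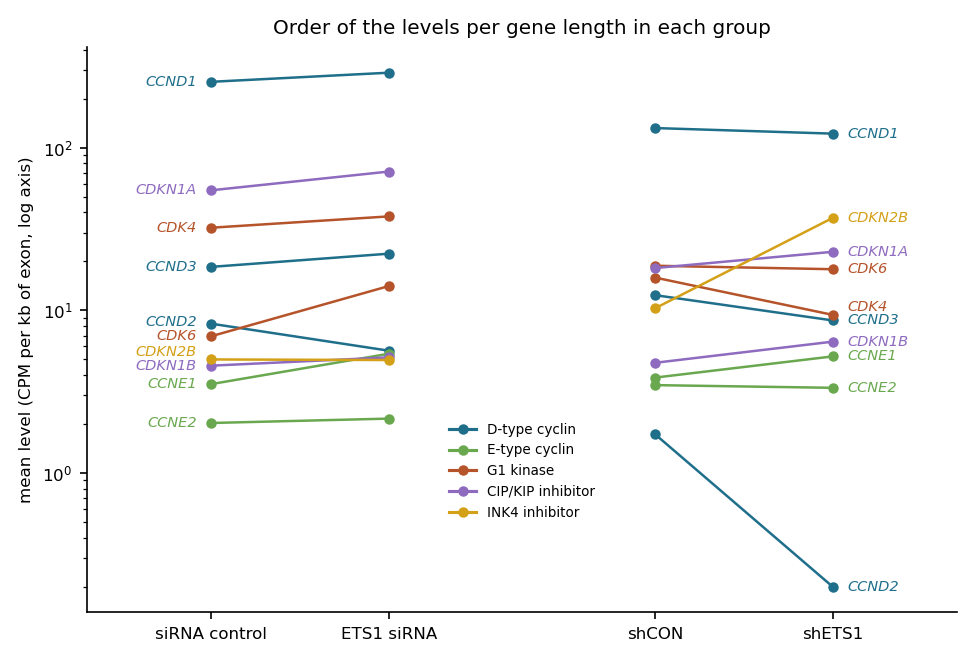
Mean level of the 10 G1 genes per kilobase of exon (CPM per kb, log axis) in each group, with lines joining each control to its knockdown and colours for the roles. CDKN2B crossed from 10.3 to 37 CPM per kb between shCON and shETS1, and CCND2 went from 1.73 to 0.200 CPM per kb.

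The rest of the G1/S pathway was described through 9 lists of genes. These lists were chosen with earlier results of these data known, so the shares below are descriptive. After siRNA 7 of the 104 list genes tested were called (6.73%, beside 3.41% over all genes), and this count was 1 without siRNA control replicate 1, 13 without ETS1 siRNA replicate 1 and 4 without ETS1 siRNA replicate 2. After the hairpin 86 of 102 were called (84.3%, beside 60.6% over all genes), 24 higher and 62 lower, where 29.7% of all genes were higher and 30.9% lower, and leaving out 1 library gave 75 to 87. E2F target genes, which serve DNA replication, were lower after the hairpin in 18 of 18 cases, with a median log2 fold change of -0.98. RRM2, a subunit of ribonucleotide reductase, fell by 1.79 on the log2 scale (adjusted p = 1.9e-11), as did UHRF1, a factor that maintains DNA methylation (adjusted p = 1.2e-10), and MCM4, part of the replicative helicase, fell by 1.26 (adjusted p = 7.1e-10). After siRNA 2 of the 18 rose and none fell, with a median of 0.13. These were the licensing factor CDT1 (log2 fold change 0.65, adjusted p = 0.044) and thymidine kinase TK1 (0.58, adjusted p = 0.089). The difference between the knockdowns was called for all 18, each lower after the hairpin.

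The later cyclins, kinases and phosphatases fell in 9 of 9 cases after the hairpin, with a median of -0.89. CCNA1 and CCNA2, the A-type cyclins, had log2 fold changes of -1.30 (adjusted p = 1.1e-08) and -1.09 (adjusted p = 2.2e-09). The phosphatase CDC25B had -1.26 (adjusted p = 2e-09). After siRNA 1 of the 9 was called, CDK2, the partner of the E-type cyclins, which rose by 0.77 (adjusted p = 0.027).

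Among the RB and E2F family, 8 of 13 fell and 3 rose after the hairpin, with a median of -0.44, and none was called after siRNA. E2F7, an E2F that represses transcription, fell by 2.28 on the log2 scale (adjusted p = 4.5e-11). E2F1 fell by 1.12 (adjusted p = 1.2e-07) and its partner TFDP1 by 0.90 (adjusted p = 1.2e-08). TFDP2 rose by 0.68 (adjusted p = 6.6e-07), as did the RB relative RBL2 by 0.48 (adjusted p = 2e-05) and E2F6 by 0.26 (adjusted p = 0.026).

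Of the other CDK inhibitors, CDKN1C, which encodes the CIP/KIP protein p57, was called after the hairpin. It stood at 3.26 and 3.74 CPM in shCON and at 15.3 and 11.9 CPM in shETS1 (log2 fold change 1.95, adjusted p = 1.7e-08). The INK4 genes CDKN2A, CDKN2C and CDKN2D did not pass the test in either knockdown. CDKN2A was the lowest, with 10 to 66 reads per library.

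Genes for the activation and turnover of G1 regulators moved in both directions after the hairpin, 6 up and 7 down of 16, with a median of 0.00166 that turned to -0.124 with library size as the only scaling. FBXW7, which marks cyclin E for destruction, rose by 0.64 (adjusted p = 3.1e-06), the ligase component DDB1 by 0.57 (adjusted p = 8.2e-06) and MNAT1, part of the CDK-activating kinase, by 0.43 (adjusted p = 0.00014). DTL, a ligase adaptor that acts on p21 and CDT1, fell by 0.96 (adjusted p = 9e-09), and the kinase-binding subunits CKS1B and CKS2 fell by 0.84 (adjusted p = 2.4e-07) and 0.52 (adjusted p = 1e-05). None of the 16 was called after siRNA.

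Transcription factors acting on G1 genes fell in 8 of 15 cases and rose in 3 after the hairpin, with a median of -0.19. FOSL1, an AP-1 subunit, had a log2 fold change of -3.33 (adjusted p = 3.1e-12), FOXM1, which drives mitotic genes, -2.00 (adjusted p = 2.2e-10) and MYBL2 -1.82 (adjusted p = 7.6e-12). FOXO3, ZBTB17 and STAT3 rose, by 0.60, 0.41 and 0.19. After siRNA MYBL2 was the only one called, and it rose by 0.57 (adjusted p = 0.097).

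Other p53 target genes besides CDKN1A split after the hairpin, with 9 higher and 6 lower of 17 tested and a median of 0.30. TP53I3, SESN1 and ZMAT3 rose by 1.51, 1.42 and 1.12, with adjusted p of at most 1.2e-07. SESN2, BAX and DDB2 fell by 0.91, 0.65 and 0.48. After siRNA 1 of 18 rose, DDB2 by 0.68 (adjusted p = 0.05), and 2 fell, MDM2 by 0.90 (adjusted p = 0.039) and ZMAT3 by 0.72 (adjusted p = 0.069). DDB2 and ZMAT3 were thus called in opposite directions in the 2 knockdowns.

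**Figure D5:**
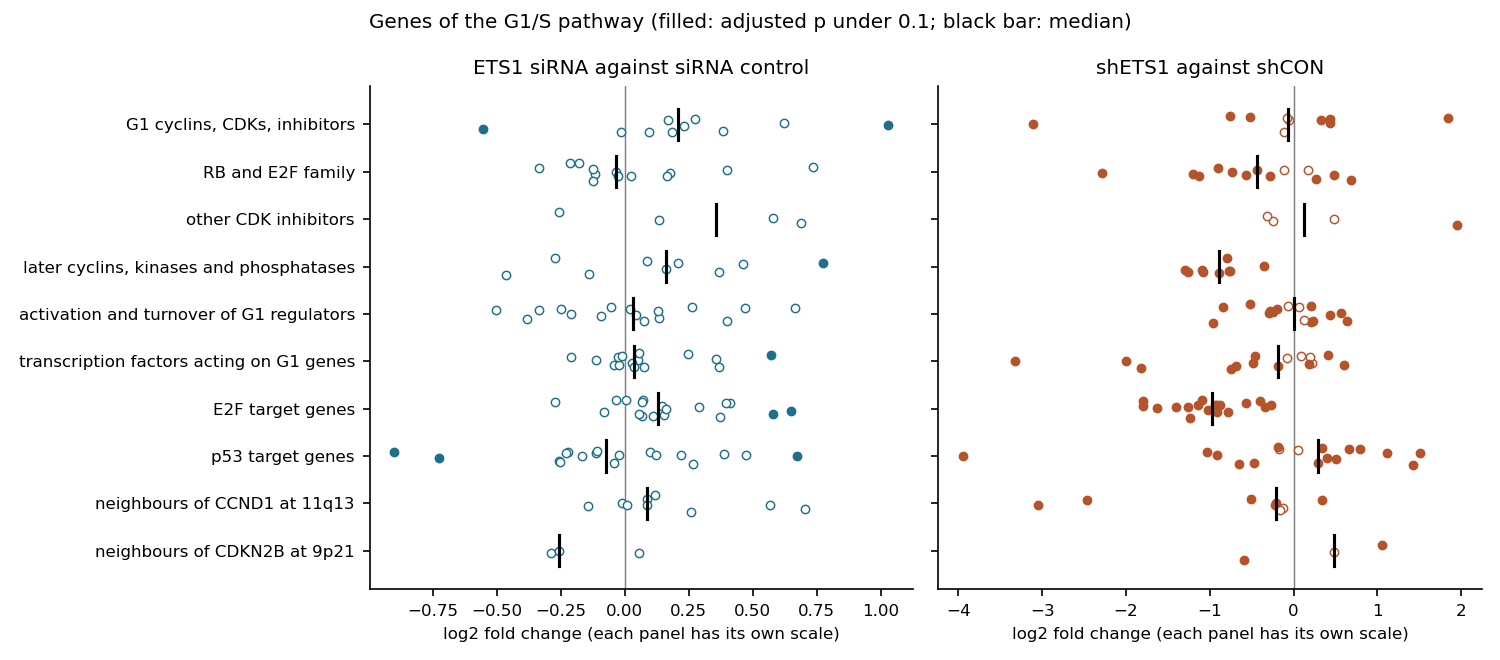
Log2 fold change of the genes of each list after siRNA (left) and after the hairpin (right), with a dot per gene, filled where the adjusted p is under 0.1, and a black bar at the list's median; the panels have their own scales, and heights within a line are arbitrary. After the hairpin the 18 E2F target genes and the 9 later cyclins, kinases and phosphatases all lie left of 0, whereas after siRNA their medians are 0.13 and 0.16.

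The neighbours of the 2 best-known loci did not follow their G1 gene throughout. At 11q13, where CCND1 did not pass the test, 5 of 8 tested neighbours fell and 1 rose after the hairpin. Over all genes tested, 30.9% were lower and 29.7% higher. Of the 5, FGF19 rested on few reads, 24 and 13 in shCON and 4 and 0 in shETS1. ANO1, a chloride channel, fell by 2.47 on the log2 scale (adjusted p = 5.6e-11), SHANK2 by 0.51 (adjusted p = 4e-04) and PPFIA1 by 0.21 (adjusted p = 0.023), and the cortactin gene CTTN rose by 0.34 (adjusted p = 0.0017). None of 9 was called after siRNA. At 9p21, MTAP, a gene of methionine salvage, fell from 34.7 and 34.2 CPM to 23.5 and 22.2 CPM (log2 fold change -0.59, adjusted p = 2.4e-05), in the direction opposite to CDKN2B. CDKN2B-AS1 rose, from 75 and 44 reads to 107 and 127 (log2 fold change 1.06, adjusted p = 0.00063). Its reads varied widely between replicates of the siRNA groups, with 67 and 7 in siRNA control and 12 and 50 in ETS1 siRNA.

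The genes whose pair of log2 fold changes lay nearest to that of CDKN2B, among the 10040 other genes whose mean reached 5 CPM in each table, were SAMD4A (0.04 after siRNA and 1.82 after shRNA), TNFAIP2 (-0.01 and 1.71) and CEP70 (0.08 and 1.74). Those nearest to CCND2 were PSAT1 (-0.49 and -3.12), IL7R (-0.50 and -3.03) and TNFRSF8 (-0.44 and -3.05). The likeness is a distance between 2 values, each from 4 libraries.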

How the data were processed

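The labels gave 8 RNA-seq libraries in 4 groups of 2. The authors prepared TruSeq libraries, aligned single-end reads to GRCh37 with TopHat2 2.1.1 and Bowtie2 2.2.6 and counted them with featureCounts 1.5.0 (versions from the submitters' processing notes). The deposited values are raw counts per gene symbol, 1 table per knockdown. Strand and multi-mapping settings are not given in the sources used here. Total counts were 15954616 to 25953213, and intervals or SDs rest on 2 libraries a group. The study names biological replicates for siRNA only, so p-values may measure technical spread. Chi-square per degree of freedom between replicates was 6.23 to 23.2, more than sampling noise.

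Each knockdown was tested against its own control across all genes by edgeR 4.0.16 in R 4.3.3 (quasi-likelihood F-tests, two-sided; TMM scaling; filterByExpr). The threshold was a Benjamini-Hochberg adjusted p of 0.1, as in the authors' DESeq2 analysis. The difference between the knockdowns was tested in 1 fit of all 8 libraries. Standard errors were derived from each fold change and its F value. Levels are CPM, or CPM per kb of merged exons in GENCODE v44 lifted to GRCh37. The study counted reads on Ensembl GRCh37 genes, so these lengths and the exon overlaps may differ from the bases that were counted. The script was tested on simulated data. The members, lists and alternatives were chosen with earlier results of these data known. TIGAR was matched by its older symbol C12orf5.

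Named are ETS1, the 10 G1 genes, from each list and knockdown up to 3 called genes per direction with the lowest p and a mean of at least 5 CPM, each gene of the lists of at most 4, and the 3 genes nearest in fold changes to the member with the largest rise and fall after shRNA. ORAOV1, TSPAN31, INTS8 and CCND2-AS1 were added for their overlap with members, and FGF19 for its low reads.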

Additional observations from a re-analysis of the deposited data

Results flagged for a closer look

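The log2 differences below are the change after the hairpin minus the change after siRNA, each past an adjusted p of 0.1 in the edgeR fit of all 8 libraries, in which 34.8% of all genes passed. Knockdown method, duration and library preparation cannot be told apart in them. Of the G1 genes, CCND2 had a difference of -2.57, CDK6 of -1.13, CDK4 of -1.01, CCND3 of -0.809 and CDKN2B of 1.84, and ETS1 itself had 1.23. Among the E2F target genes the differences were -2.08 for CDT1, -1.87 for RRM2, -1.82 for UHRF1, -1.74 for TK1 and -1.42 for MCM4. Among the later cyclins, kinases and phosphatases they were -1.64 for CDC25B, -1.56 for CDK2, -1.4 for CCNA1 and -0.643 for CCNA2. In the RB and E2F family they were -2.47 for E2F7, -1.55 for E2F1, -0.743 for TFDP1, 0.578 for E2F6 and 0.687 for TFDP2.

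Among the transcription factors the differences were -3.24 for FOSL1, -2.41 for MYBL2 and -2.39 for FOXM1. For activation and turnover of G1 regulators they were -1.38 for DTL, -1.33 for CKS1B, -0.67 for CKS2, 0.746 for MNAT1, 0.759 for DDB1 and 1.12 for FBXW7. The p53 target genes had -1.17 for DDB2, -1.03 for SESN2, -0.889 for BAX, 0.933 for MDM2, 1.43 for SESN1, 1.71 for TP53I3 and 1.83 for ZMAT3.

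Of the other inhibitors CDKN1C had 1.24 and CDKN2C -0.841. CDKN2C was called in neither knockdown alone, and stood at 5.84 and 7.42 CPM in siRNA control, 9.08 and 10.6 CPM in ETS1 siRNA, 9.31 and 9.98 CPM in shCON and 8.58 and 7.77 CPM in shETS1. Near the CCND1 and CDKN2B loci ANO1 had -2.58, SHANK2 -0.614 and MTAP -0.667, and INTS8, which overlaps CCNE2, had 0.599. The genes nearest in pattern to CDKN2B had 1.76 (SAMD4A), 1.7 (TNFAIP2) and 1.64 (CEP70), and those nearest to CCND2 had -2.66 (PSAT1), -2.55 (IL7R) and -2.63 (TNFRSF8); these 6 were picked on the fold changes that make up the difference.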

How the results depend on the processing

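The shRNA calls varied little, with 6 to 8 of the G1 genes called under each alternative. The difference between the knockdowns was called for 4 to 7. At the main settings 60.6% of all genes tested were called after the hairpin and 34.8% for the difference. The count of 9988 over all genes after the hairpin was 7609 with DESeq2 and 9173 with the replicate number as a block. The steady shRNA counts were thus not particular to the G1 genes. The siRNA count of 2 was 1 at an adjusted p under 0.05 and 4 with all 8 libraries in one fit. It was 1 to 2 when 1 library was left out. CCND2 was not tested after the hairpin among protein-coding genes with at least 1 TPM, where its level fell below the limit. The siRNA count of 7 list genes was 17 with no filter on low counts, 12 with DESeq2, 4 at an adjusted p under 0.05, 23 with all 8 libraries in one fit and 1 to 13 when 1 library was left out. The count of 502 over all genes was 1466 with no filter, 795 among protein-coding genes with at least 1 TPM, 766 with DESeq2, 190 at an adjusted p under 0.05 and 2166 with all 8 libraries in one fit. The cause of these shifts was not tested.

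With the longest transcript as gene length, 6 of 10 genes kept their place in siRNA control and 6 in shCON. Some genes also changed places in ETS1 siRNA and in shETS1. When 1 library was left out, values near 0 changed sign: CDKN2B after siRNA ran from -0.157 to 0.152, CDK6 after shRNA from -0.2 to 0.028 and the difference for CDKN1A from -0.166 to 0.0139. List medians ran from -0.0462 to 0.0587 after siRNA for the RB and E2F family, from -0.00651 to 0.0368 for activation and turnover, from -0.101 to 0.0727 for p53 targets and from -0.208 to 0.253 for the 9p21 neighbours. After shRNA they ran from -0.00025 to 0.199 for other CDK inhibitors and from -0.0368 to 0.00824 for activation and turnover, and with library size only these 2 were -0.00401 and -0.124.

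Same-numbered libraries did not deviate together (correlations of -0.54 after siRNA and -0.2 after shRNA), so the replicate numbers were not taken as pairs. With 2 libraries a group, a negative value means that libraries of unlike number deviated together. The main test did not model this, so it stayed in the spread. With the replicate number as a block, 1 G1 gene was called after siRNA, with 1 list gene and 97 genes in all. After shRNA 7 G1 genes were called, with 9173 genes in all, and 5 G1 genes were called for the difference. The numbers were also crossed, an alternative chosen after seeing the data. Then 4 G1 genes, 31 list genes and 3238 genes in all were called after siRNA. After shRNA 8 G1 genes and 10923 genes in all were called.

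At these depths CCND2 in shETS1 rested on 37 and 40 reads and CCNE1 on 153 to 315 reads per library, which limits the precision of both.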
